A study of Homo sapiens with 18 samples.

Results

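Anti-ARID1A peaks of A549 cells with ARID1A knocked down by siRNA were compared directly with those of A549 cells lacking YTHDF1, leaving wild-type cells out of the comparison. A549 is a human lung adenocarcinoma cell line. The assay was CUT&Tag, in which an antibody bound in chromatin directs a transposase that cuts and tags the DNA nearby. The 4 peak lists used are the 2 replicates labelled siARID1A with the ARID1A antibody and the 2 replicates labelled YTHDF1-KO with the same antibody, out of 18 samples in the series. siARID1A cells carry the genotype label ARID1A knockdown, YTHDF1-KO cells the label YTHDF1 knockout, and no other agent is named for either. The anti-YTHDF1 lists of the same conditions (2 each) and the 2 anti-ARID1A lists of wild-type (WT) cells are quoted only beside results, which makes 10 lists analysed here. The 6 IgG samples were not analysed here. Whether the knockout cells are a single clone, how far ARID1A was depleted, and whether replicates were separate cultures are not given in the labels, so a p-value reflects the spread among these libraries alone, which may be technical. In siARID1A cells the target of the antibody was itself depleted, and less ARID1A protein and a changed place of ARID1A on chromatin cannot be told apart. By their label YTHDF1-KO cells lack the target of the anti-YTHDF1 antibody, so its peaks there are not read as YTHDF1 sites.

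ARID1A is a DNA-binding subunit of the canonical BAF form of the SWI/SNF remodelling complex, which moves nucleosomes with the energy of ATP and keeps enhancers and promoters accessible. YTHDF1 is a reader of N6-methyladenosine on RNA, best known for its work in the cytoplasm. ARID1A is a frequent target of inactivating mutations in carcinomas, and R-loops, hybrids of RNA and DNA at transcribed sites, are the structures named in the series title.

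Peaks on chromosomes 1 to 22 and X of the 4 lists were merged into 143703 regions, and a list was counted as holding a region where it had a peak sharing at least 1 bp with it. A region was called siARID1A only if both siARID1A lists and no YTHDF1-KO list held it, and YTHDF1-KO only in the opposite case. Of all regions 957 (0.666%) were siARID1A only, 15443 (10.7%) were YTHDF1-KO only and 26225 (18.2%) were held by all 4 lists. The ends of 19970 protein-coding genes were followed with windows of 1 kb to either side of each annotated end.

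Few one-condition regions hold a promoter. The windows of 6 genes that did lie in one-condition peaks are shown as examples of the DNA at these genes. They were the 3 named genes of highest signal rank per direction whose RefSeq promoter window (GRCh38.p14) showed the pattern. The window runs from 250 bases before the annotated start to 50 bases after it, and they are printed 5′ to 3′ on the strand of the gene with CG dinucleotides in capitals. The first 3 were siARID1A only. TSPAN1 encodes a tetraspanin of the cell surface (chr1:46174837-46175136, plus strand), IL1R2 the decoy receptor of interleukin 1 (chr2:101998711-101999010, plus strand), and RPL29 a protein of the large ribosomal subunit (chr3:51995846-51996145, minus strand).
TSPAN1: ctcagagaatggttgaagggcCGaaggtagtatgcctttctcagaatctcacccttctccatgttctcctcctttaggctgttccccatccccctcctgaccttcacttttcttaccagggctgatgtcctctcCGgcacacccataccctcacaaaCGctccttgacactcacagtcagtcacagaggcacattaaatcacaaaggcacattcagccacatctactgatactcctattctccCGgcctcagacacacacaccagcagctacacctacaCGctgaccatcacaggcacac
IL1R2: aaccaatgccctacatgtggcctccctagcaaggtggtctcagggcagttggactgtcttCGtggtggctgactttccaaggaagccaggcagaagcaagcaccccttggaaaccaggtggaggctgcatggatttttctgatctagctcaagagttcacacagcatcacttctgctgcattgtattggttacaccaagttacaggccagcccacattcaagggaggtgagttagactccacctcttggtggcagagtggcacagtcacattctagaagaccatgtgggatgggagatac
RPL29: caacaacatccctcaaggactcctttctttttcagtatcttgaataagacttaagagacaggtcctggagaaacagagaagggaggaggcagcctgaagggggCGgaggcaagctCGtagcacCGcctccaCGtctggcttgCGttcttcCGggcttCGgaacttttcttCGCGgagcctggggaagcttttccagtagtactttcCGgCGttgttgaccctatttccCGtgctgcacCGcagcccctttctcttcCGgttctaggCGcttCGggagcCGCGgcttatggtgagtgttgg
The other 3 were YTHDF1-KO only. COL5A3 and COL5A1 encode chains of type V collagen (chr19:10010455-10010754, minus strand, and chr9:134641553-134641852, plus strand), and THOC2 a subunit of the THO complex of mRNA export (chrX:123733003-123733302, minus strand).
COL5A3: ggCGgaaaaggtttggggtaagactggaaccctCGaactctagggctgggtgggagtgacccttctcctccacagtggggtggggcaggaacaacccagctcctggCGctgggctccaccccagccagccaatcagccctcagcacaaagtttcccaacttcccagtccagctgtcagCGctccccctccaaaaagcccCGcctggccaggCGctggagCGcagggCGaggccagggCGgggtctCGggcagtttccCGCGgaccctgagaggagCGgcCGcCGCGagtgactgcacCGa
COL5A1: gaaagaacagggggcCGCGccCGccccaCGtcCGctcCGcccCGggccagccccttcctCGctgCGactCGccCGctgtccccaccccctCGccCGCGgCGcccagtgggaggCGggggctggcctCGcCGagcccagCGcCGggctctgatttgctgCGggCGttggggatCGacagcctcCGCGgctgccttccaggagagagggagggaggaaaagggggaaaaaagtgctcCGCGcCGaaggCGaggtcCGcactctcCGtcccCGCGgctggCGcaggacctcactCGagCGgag
THOC2: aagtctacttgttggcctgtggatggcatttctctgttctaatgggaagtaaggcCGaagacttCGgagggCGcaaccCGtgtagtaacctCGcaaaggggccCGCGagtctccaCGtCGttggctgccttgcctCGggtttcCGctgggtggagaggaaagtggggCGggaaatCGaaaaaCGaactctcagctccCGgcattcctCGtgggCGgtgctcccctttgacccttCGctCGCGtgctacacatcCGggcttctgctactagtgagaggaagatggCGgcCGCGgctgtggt
CG dinucleotides numbered 5 in the TSPAN1 window, 1 in IL1R2 and 18 in RPL29. They numbered 17 in COL5A3, 36 in COL5A1 and 24 in THOC2. Over all promoter windows the median was 22, so the RPL29 and COL5A3 windows lay near it and the TSPAN1 and IL1R2 windows well below.

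siARID1A lists were shorter and covered less of the genome. They held 71271 and 79193 peaks in siARID1A cells, against 99861 and 106882 in YTHDF1-KO cells, a ratio of the means of 0.728. Peaks covered 99 and 128 Mb in siARID1A cells and 241 and 234 Mb in YTHDF1-KO cells, a ratio of 0.477. The median peak was 1104 and 1243 bp wide in siARID1A lists and 1650 and 1523 bp in YTHDF1-KO lists. Peaks of 10 kb or more were 0.257% ± 0.139 of siARID1A lists and 1.73% ± 0.396 of YTHDF1-KO lists (SD, n = 2 each). For each of these measures both siARID1A values lay below both YTHDF1-KO values, and the exact two-sided permutation test gave p = 0.333, the smallest that 2 libraries against 2 allow. With the anti-YTHDF1 antibody the direction was the opposite in peak number, covered length and the share of peaks of 10 kb or more. YTHDF1-KO cells lack the target of this antibody by their label. With it siARID1A peaks covered 79.6 ± 2.94 Mb and YTHDF1-KO peaks 59.4 ± 2.25 Mb (SD, n = 2 each), a ratio of 1.34. The median widths of anti-YTHDF1 peaks overlapped, with 1088 and 1168 bp in siARID1A lists and 1055 and 1089 bp in YTHDF1-KO lists. The mitochondrial genome, covered by 1 peak in every list, took 49.5 and 44.9% of the listed signal in siARID1A anti-ARID1A libraries, against 22.6 and 23% in YTHDF1-KO libraries; its part in the list sizes was not tested. How deeply each library was sequenced is unknown.

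**Figure D1:**
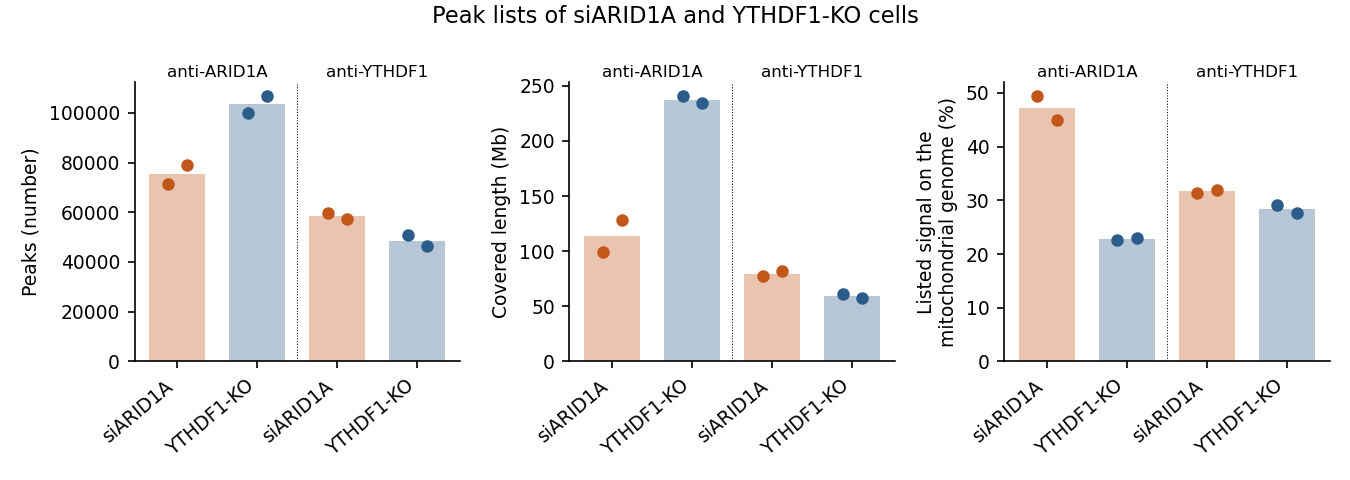
Number of peaks, covered length in Mb and share of the listed signal on the mitochondrial genome in percent, for siARID1A (orange) and YTHDF1-KO (blue) lists of both antibodies; bars are means, points the 2 replicates. With anti-ARID1A the siARID1A lists lie below the YTHDF1-KO lists in peaks and covered length, and with anti-YTHDF1 above them.

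Most siARID1A peaks overlapped a YTHDF1-KO peak, and fewer did so in the other direction. On average 76.7% of the peaks of a siARID1A list overlapped a peak of a YTHDF1-KO list (75.1 to 78.4% over the 4 pairs). In the other direction 43.2% of YTHDF1-KO peaks overlapped a siARID1A peak (39.4 to 46.9%). Between replicates the overlap was 52.8 and 63.2% within siARID1A and 66.6 and 67.7% within YTHDF1-KO. A siARID1A peak therefore overlapped the YTHDF1-KO lists more often than the other siARID1A list, which is shorter and covers less. Regions in 1 list only were 73724, more than those held by all 4.

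**Figure D2:**
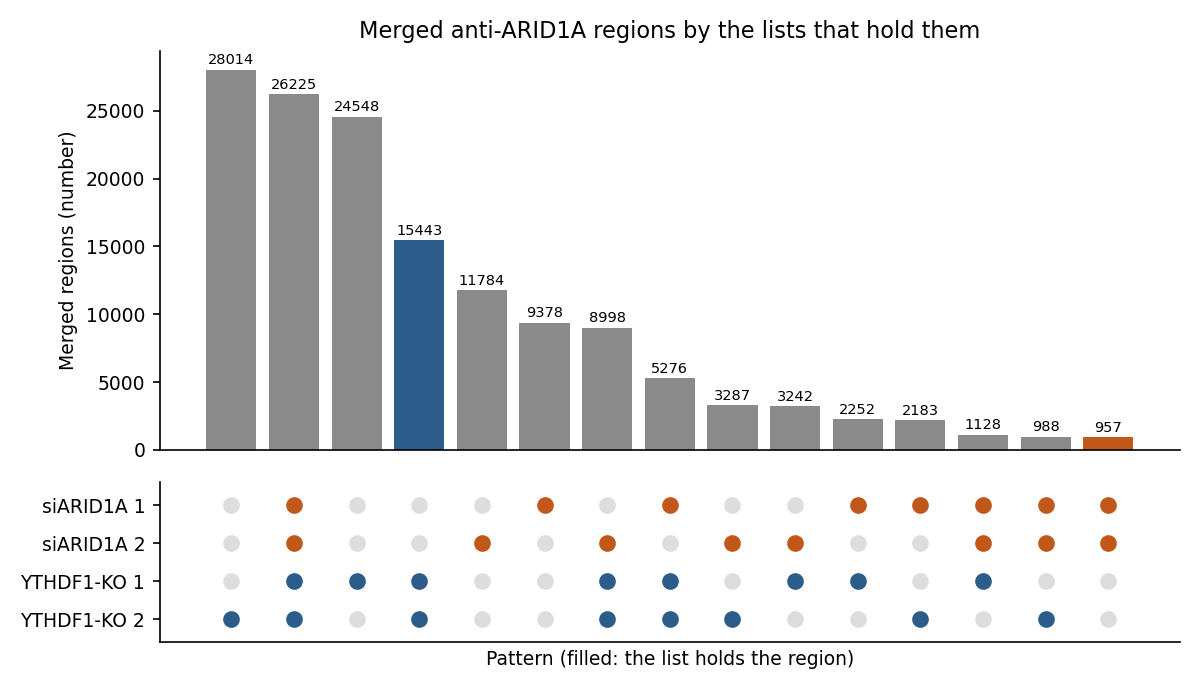
Number of merged anti-ARID1A regions for each of the 15 patterns of lists that hold them; filled circles mark the lists. The siARID1A only pattern (orange, 957 regions) is the rarest and the YTHDF1-KO only pattern (blue, 15443 regions) the fourth most frequent.

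The counts of one-condition regions depended on the rule that asks for both replicates. Leaving out a list loosens that rule, so higher counts are built into such runs and do not measure a single replicate. With siARID1A replicate 1 or 2 left out, siARID1A only regions numbered 12915 or 10619, and with a YTHDF1-KO replicate left out 2379 or 2188. YTHDF1-KO only regions numbered 48526 or 43756 without YTHDF1-KO replicate 1 or 2, and 20989 or 24987 without siARID1A replicate 1 or 2. In lists shortened to the 71271 peaks of highest total signal, the counts were 1578 for siARID1A only and 7725 for YTHDF1-KO only. The inequality thus kept its direction at an equal number of peaks, called equal length below. Covered length was not made equal, and YTHDF1-KO peaks were wider in the full lists.

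One-condition regions ranked lower and lay farther from promoters than the regions of all 4 lists. Their distance from gene ends was near that of all merged regions. Signal rank is given as the percentile of a peak's total signal within its own list. siARID1A only regions had median percentiles of 31.9 and 32.8, YTHDF1-KO only regions of 41.2 and 43.0, and regions of all 4 lists between 71.9 and 75.5 in siARID1A lists and between 83.1 and 83.7 in YTHDF1-KO lists. Their median widths were 1468 bp, 2023 bp and 4159 bp. An annotated promoter window lay in 4.28% of siARID1A only and 2.58% of YTHDF1-KO only regions, against 28.5% of the regions of all 4 lists and 7.14% of all merged regions. The median distance to the nearest end of a protein-coding gene was 18.6 kb for siARID1A only, 19 kb for YTHDF1-KO only and 4.08 kb for shared regions, against 17.5 kb for all merged regions. All merged regions had median percentiles of 48.6 to 49.0 and those of the other patterns of 27.5 to 33.3, and 2.33% of the other patterns held a promoter window. Wider regions meet more windows, so these shares are descriptions.

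WT lists, which took no part in the choice, held many of these regions. Both WT lists held 32.5% of siARID1A only regions, 47.0% of YTHDF1-KO only regions and 95.5% of shared regions, and neither held 33.6%, 22.2% and 0.648% of them. Anti-YTHDF1 lists of siARID1A cells held 15.2 and 16.0% of siARID1A only regions, against 8.88 and 7.84% in the anti-YTHDF1 lists of YTHDF1-KO cells. They held 15.7 and 15.5% of YTHDF1-KO only regions in siARID1A cells and 14.2 and 13.3% in YTHDF1-KO cells. At shared regions the anti-YTHDF1 lists of siARID1A cells held 62.8 and 64.0%, and those of YTHDF1-KO cells 50.9 and 49.7%. Anti-YTHDF1 lists of siARID1A cells thus held the larger share of every class, including the regions whose anti-ARID1A peaks were in YTHDF1-KO cells only. Those lists also cover more of the genome, and YTHDF1-KO cells lack the target of that antibody by their label.

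Of the 12 siARID1A only regions of highest rank 8 lay within a gene, against 57.8% of all merged regions. The region in KCNK1, a potassium channel gene, ranked at the 76.6 and 82.2 percentile of the siARID1A lists (chr1:233654426-233656605). A region within RARB, the retinoic acid receptor beta gene, ranked at 76.8 and 75.3 (chr3:25420957-25422548), and its nearest gene end belonged to TOP2B, a DNA topoisomerase gene. A region over PIK3R3, a regulatory subunit of phosphoinositide 3-kinase, and the TSPAN1 promoter ranked at 67.7 and 76.0 (chr1:46173075-46176289). One within GULP1, an adaptor of apoptotic cell engulfment, ranked at 72.6 and 70.1 (chr2:188414076-188417149), and the IL1R2 region at 69.0 and 73.4 (chr2:101998653-102000271). The remaining 7 of the 12 named regions lay at or nearest to TMEM220, DAPK1, RPL29, BTG1, AQP4, RIC3 and LOC124903766. Both WT lists held 11 of the 12, the exception being the region near LOC124903766, which 1 WT list held. The 12 were chosen by rank within the class, and strong peaks are more readily found in other lists.

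The YTHDF1-KO only regions of highest rank were stronger and wider, with percentiles from 88.5 to 94.7, and both WT lists held all 12. A region 5966 bp wide lay 170 kb from OPA1, a GTPase of mitochondrial fusion (chr3:193867941-193873906), with peaks of 5966 and 3460 bp in the 2 YTHDF1-KO lists. One 21 kb from PRKCI, an atypical protein kinase C gene, had peaks of 5235 and 4148 bp (chr3:170327026-170332260). A region in EPHA2, a receptor kinase for ephrins, had peaks of 5197 and 5382 bp (chr1:16130318-16135699). Another lay in PECAM1, an adhesion molecule of endothelium and platelets (chr17:64382678-64389795, 4550 and 6861 bp). The COL5A3 region (chr19:10007278-10012504, 5227 and 3411 bp) was the one of the 12 with a promoter window. The remaining 7 lay in or nearest to PLAC1, KCNQ3, SCARB1, CTIF, CPNE2, DENND2B and MLIP. Anti-YTHDF1 lists held 10 of the 12 in at least 1 library, against 4 of the 12 siARID1A only regions, which ranked lower (48.4 to 92.4). Over the whole classes, single anti-YTHDF1 lists held 13.3 to 15.7% of YTHDF1-KO only and 7.84 to 16.0% of siARID1A only regions.

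Chromosome 2 stood apart. It carried 231 of the 957 siARID1A only regions (24.1%) and 609 of the 15443 YTHDF1-KO only regions (3.94%), against 7.73% of all merged regions. YTHDF1-KO only regions outnumbered siARID1A only regions 2.64 to 1 on chromosome 2, and between 7.18 to 1 on chromosome 21 and 33.8 to 1 on chromosome 19 elsewhere. Parts of chromosomes 9 and 17, cut at places known from earlier results of these data, held 14 siARID1A only and 398 YTHDF1-KO only of 3528 regions beyond 80 Mb of chromosome 9, and 24 and 608 of 5003 beyond 40 Mb of chromosome 17. The siARID1A only shares of 0.397% and 0.480% there stood beside 0.548% over the chromosomes other than 2. Without chromosomes 2, 9 and 17 the counts were 653 siARID1A only and 13127 YTHDF1-KO only regions.

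**Figure D3:**
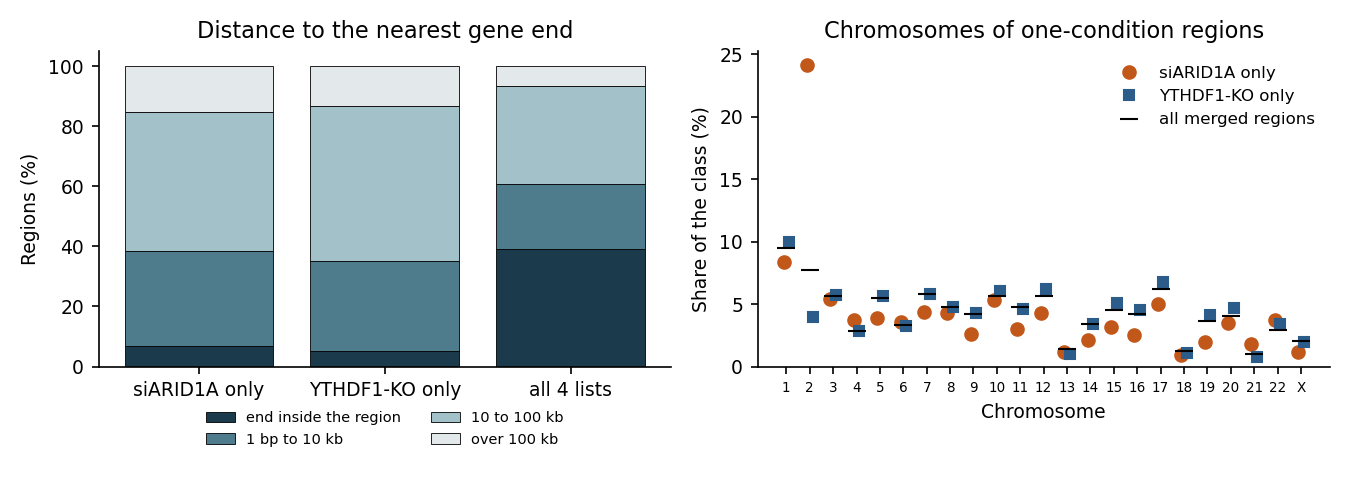
Left, share of regions in percent by distance from the region to the nearest protein-coding gene end, for siARID1A only, YTHDF1-KO only and shared regions. Right, share of each class in percent by chromosome, with siARID1A only as orange circles, YTHDF1-KO only as blue squares and all merged regions as bars; siARID1A only regions reach 24.1% on chromosome 2.

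The share of the covered length on each chromosome was tested with limma on the log2 scale over 23 chromosomes. It was lower in siARID1A on 14 chromosomes (60.9%) and higher on 4 (17.4%) at an adjusted p under 0.05. Shares sum to a whole, so a gain on 1 chromosome lowers the others, and with chromosome 2 left out of the total 11 were lower and 7 higher. Chromosome 2 held 7.36 and 7.59% of the covered length in siARID1A cells, against 5.10 and 5.17% in YTHDF1-KO cells, a log2 difference of 0.54 (SE 0.023, limma adjusted p = 3.54e-10). In the WT lists it held 8.01 and 8.21%. The anti-YTHDF1 lists showed the same difference on chromosome 2, with 7.30 and 7.03% in siARID1A cells and 4.76 and 4.57% in YTHDF1-KO cells (log2 difference 0.62, SE 0.036, limma adjusted p = 0.0111), and no other chromosome passed the test there. In bins of 5 Mb (pseudocount 0.005% of the covered length, bins of at least 0.02% on average), chromosome 2 had a higher share in siARID1A in 45 of 45 bins with either antibody, while 143 of 477 bins of other chromosomes were higher with anti-ARID1A. The median log2 difference was 0.39 below 85 Mb and 0.62 from 85 Mb on with anti-ARID1A, and 0.53 and 0.67 with anti-YTHDF1.

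The other higher chromosomes were 17, 19 and 21. Chromosome 19, the most gene-dense, held 9.83 and 9.47% of the covered length in siARID1A cells and 8.48 and 8.47% in YTHDF1-KO cells (log2 difference 0.19, SE 0.023, limma adjusted p = 1.55e-05). The difference was 0.04 in lists of equal length (adjusted p = 0.0404) and 0.54 by the share of peak number. Chromosome 21 held 0.978 and 0.964% in siARID1A cells and 0.826 and 0.783% in YTHDF1-KO cells (0.27, SE 0.026, limma adjusted p = 2.62e-06), and by the share of peak number the difference was 0.13. Much of that lay below 15 Mb, the part of the chromosome that carries ribosomal RNA genes, with 0.350 and 0.323% in siARID1A cells and 0.212 and 0.191% in YTHDF1-KO cells, while beyond 15 Mb the shares were 0.628 and 0.641% against 0.615 and 0.591%. These sequences are repeated in the genome, so reads there may be shared between copies. Chromosome 17 differed by 0.11 on the log2 scale (SE 0.022, limma adjusted p = 7.18e-04) and lost its call in lists of equal length (0.02, adjusted p = 0.364) and without YTHDF1-KO replicate 2 (0.10, adjusted p = 0.0520). The lowest were chromosomes 10, 15 and 3, which differed by −0.20, −0.19 and −0.18, and chromosome 3 by −0.09 in lists of equal length. The last 5 Mb at chromosome ends held 11.5% ± 0.227 of the covered length in siARID1A cells and 9.75% ± 0.108 in YTHDF1-KO cells (SD, n = 2 each, exact permutation p = 0.333, the smallest possible).

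**Figure D4:**
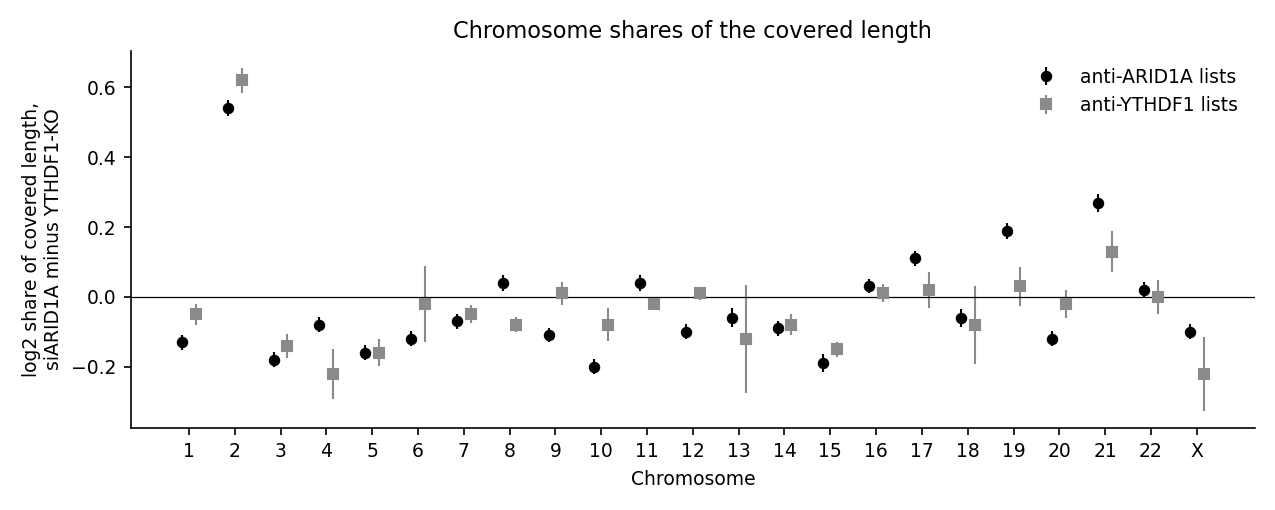
Difference of the log2 share of covered length, siARID1A minus YTHDF1-KO, by chromosome, for anti-ARID1A lists (black circles) and anti-YTHDF1 lists (grey squares); error bars are the standard errors of limma. Chromosome 2 lies at 0.54 and 0.62, above every other chromosome with either antibody.

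At the regions held by all 4 lists, peaks were narrower in siARID1A cells. The median covered length of a region was 1660 and 2016 bp in siARID1A cells, against 3206 and 3045 bp in YTHDF1-KO cells. The median log2 difference was −0.67 (quartiles −1.09 and −0.33), a ratio of 0.629. Both siARID1A values lay below both YTHDF1-KO values in 17221 of 26225 regions (65.7%) and above them in 439 (1.67%). With limma and Benjamini-Hochberg adjustment 2669 regions (10.2%) were narrower and 0 were wider at an adjusted p under 0.05, and at an unadjusted p under 0.05 these were 9173 and 30. Without YTHDF1-KO replicate 1 or 2, 1 or 2 regions were called narrower, while the median log2 difference was −0.59 or −0.67. Without siARID1A replicate 1 or 2 the calls numbered 3955 or 8289 and the median was −0.53 or −0.76. Each of these fits has 1 library in an arm, takes the spread from the other arm and assumes that the lone library varies like it. Centring each library on its own median width, which removes a shift of −0.77, left 6 narrower and 43 wider regions.

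**Figure D5:**
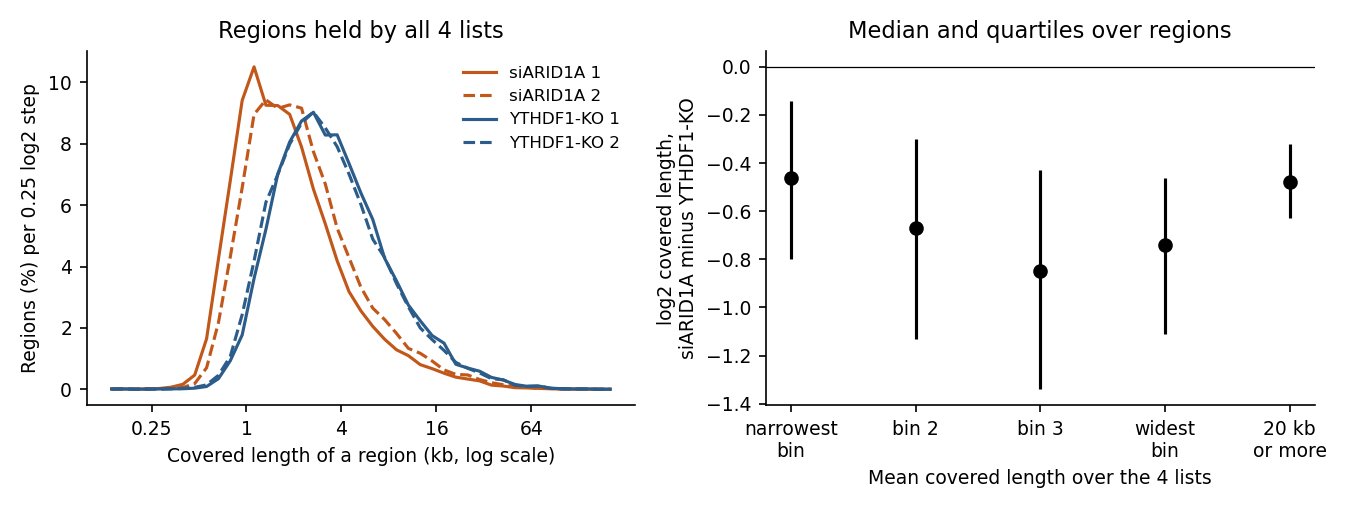
Left, share of the 26225 shared regions in percent by covered length in kb (log scale) in each of the 4 libraries. Right, median (point) and quartiles (line) over regions of the log2 difference in covered length, siARID1A minus YTHDF1-KO, in 4 bins of mean width and at the regions of 20 kb or more, which also lie in the widest bin; both siARID1A curves lie left of the YTHDF1-KO curves, and the medians run from −0.46 to −0.85.

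Narrowing depended on the width and place of a region. In 4 bins of about equal size by mean width the median log2 difference was −0.46, −0.67, −0.85 and −0.74 from the narrowest bin to the widest, and at the 566 regions of 20 kb or more it was −0.48. Calls were more frequent among wider regions, with 1.13% of the narrowest bin, 22.3% of the widest and 46.8% of regions of 20 kb or more. The share called does not rank the size of the narrowing, as the median at regions of 20 kb or more was only −0.48. Regions with a promoter window differed by −0.55 in the median (672 of 7463 called, 9.0%), and those without by −0.73 (1997 of 18762, 10.6%). On chromosome 2 the median was −0.37 with 53 of 1965 regions called (2.70%), against −0.69 and 10.8% on the other chromosomes. Chromosome 20 had the lowest median, −0.84. Of 15169 regions with 1 peak in each YTHDF1-KO list, 1030 (6.79%) were split into 2 or more peaks in each siARID1A list, and of 14117 regions with 1 peak in each siARID1A list, 493 (3.49%) had 2 or more in each YTHDF1-KO list.

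The largest differences in width, by which the next regions were chosen, were at regions broad in YTHDF1-KO cells. A region at LOC124904930 (chr20:51352304-51367775) covered 520 and 846 bp in siARID1A cells and 13975 and 11582 bp in YTHDF1-KO cells (log2 difference −4.26, SE 0.40, limma adjusted p = 0.0324). A region over SIDT2 and TAGLN, the gene of the actin-binding protein transgelin (chr11:117195663-117204728), covered 741 and 763 bp against 7985 and 7665 bp (−3.38, SE 0.37, limma adjusted p = 0.0324). Both stayed narrower after centring, as did regions in or near MYH14, FAM222A, GTF2IRD2 and SH3PXD2A, all of which kept at least 1 peak in every list. GTF2IRD2 has near-identical copies nearby, so its value is uncertain. Others of the 12 narrowest lay near ENO1, an enzyme of glycolysis, with 459 and 2072 bp in siARID1A cells and 9152 and 9225 bp in YTHDF1-KO cells, and in LRP5, a co-receptor of Wnt, with 1514 and 681 bp against 8808 and 8299 bp. Further ones lay in FAM83F, ARPIN-AP3S2, PACS1, FBXO27 and ACSS1. Another lay in CCDC33, with the nearest gene end, that of STRA6, 21.2 kb away. A region outside genes lay 93.0 kb from the nearest gene end, that of BASP1.

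The 43 regions called wider after centring narrowed by less than the shift of the libraries or, as at MUC5B and on chromosome 21, did not narrow. All were 20 kb or more on average. On the deposited scale 16 of them were called narrower, 27 were not called and none was called wider. They included 15 on chromosome 19. The SPINT2 region, which spans 158273 bp and many neighbouring genes (chr19:38277969-38436241), was covered over 100286 and 115934 bp in siARID1A cells and 155498 and 151674 bp in YTHDF1-KO cells, in 45 and 35 peaks against 9 and 8, and was among those called narrower as deposited (log2 difference −0.51, limma adjusted p = 0.0324). The region over MUC5B, the gene of a secreted airway mucin (chr11:1217388-1243326), covered 22964 and 25253 bp in siARID1A cells and 23430 and 24384 bp in YTHDF1-KO cells. A region over ANXA2, the gene of an annexin that binds membranes (chr15:60358944-60403977), covered 33795 and 38657 bp against 41593 and 41318 bp. At a region beside the ribosomal RNA genes of chromosome 21 the values were 31911 and 31991 bp in siARID1A cells and 31433 and 30151 bp in YTHDF1-KO cells (chr21:8217397-8250574).

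Gene ends followed the regions. Of 19970 protein-coding genes 66 (0.33%) had an end in the siARID1A only pattern, 766 (3.84%) in the YTHDF1-KO only pattern and 11406 (57.1%) in all 4 lists. Chromosome 2 carried 18 of the 66 and 15 of the 766. Among 15811 RefSeq promoter windows 47 (0.297%) were siARID1A only, 677 (4.28%) YTHDF1-KO only and 7522 (47.6%) in all 4 lists. Of these windows chromosome 2 carried 13 of the 47 and 27 of the 677. The share of all genes on chromosome 2 is not given here, so these counts are descriptions. The median number of CG dinucleotides was 23 in siARID1A only, 18 in YTHDF1-KO only, 27 in shared and 5 in unmarked promoters, and 22 over all promoters. Windows with under 10 CG dinucleotides made up 17% of siARID1A only, 32.9% of YTHDF1-KO only, 6.81% of shared and 27.0% of all promoters. The letters TATAAA, searched on both strands, occurred in 8.51%, 7.24% and 4.75% of those 3 classes and 9.64% of all promoters, and GGGCGG in 59.6%, 57.6% and 75.4% of the classes and 58.5% of all. The motif TGANTCA occurred in 2.13%, 6.20% and 4.25% of the classes and 5.76% of all, CCAAT in 31.9%, 29.2% and 38.6% against 36.3%, and CACGTG in 10.6%, 9.90% and 10.4% against 8.87%. No motif searched contains another, and a match is not a binding site.

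Of 22 gene lists that name 499 genes, 8 had a member with an end in the YTHDF1-KO only pattern, 1 had a member in the siARID1A only pattern and 13 had neither. Of the 499 genes 17 were in the YTHDF1-KO only pattern, a share no higher than the 3.84% of all genes. The 3 lists described next are those with the highest shares in that pattern among the 22. The list of genes that resolve R-loops had 16 of 22 members in all 4 lists (72.7%) and 3 in the YTHDF1-KO only pattern (13.6%, against 3.84% of all genes). These were THOC2, RNASEH2B, a subunit of RNase H2, and DDX39B, an RNA helicase. Their peaks ranked at the 43.5 and 78.8, the 25.7 and 37.1, and the 17.8 and 26.9 percentile of the YTHDF1-KO lists. Immune checkpoint ligands had 3 of 14 members in that pattern (21.4%), namely HHLA2, CD80 and PDCD1LG2, which encodes PD-L2, and 6 of 14 in all 4 lists. Genes of EMT and mesenchyme had 3 of 26 (11.5%), COL5A1 at the 68.0 and 76.5 percentile, SPARC, a secreted glycoprotein that binds collagen, at 51.6 and 66.8, and TWIST2, a transcription factor of mesenchyme, at 64.6 and 18.3. Counts of this size are descriptions, and CD80, RNASEH2B, PDCD1LG2, TWIST2 and DDX39B did not keep the pattern in lists of equal length.

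Other YTHDF1-KO only members included BDNF, a neurotrophin, at the 90.0 and 91.8 percentile, and BRAF, a kinase of the MAPK pathway, in growth factor signalling, SFTPA2, a surfactant protein, and LAMP3, a lysosomal membrane protein, in lung epithelium, AMOTL1 and WWTR1, which encodes TAZ, in the YAP and TEAD pathway, and CHAT among neuronal markers. Of these, LAMP3, BRAF and WWTR1 lost the pattern in lists of equal length. RPL29 was the single siARID1A only member. Its peaks ranked at 69.0 and 71.2 and it has processed copies elsewhere in the genome, so reads could be shared. With windows of 3 kb in place of 1 kb, RPL29, BDNF, SPARC and TWIST2 had a peak in all 4 lists. Over the whole gene BDNF, COL5A1, THOC2, HHLA2, TWIST2, CHAT, AMOTL1, LAMP3 and WWTR1 had a peak in all 4 lists, so for them the pattern held at the gene ends and not within the gene. Among SWI/SNF subunits 21 of 28 had an end peak in all 4 lists and none was in a one-condition pattern. The same held for m6A machinery with 18 of 21, NRF2 targets with 22 of 23, cell cycle with 25 of 29, p53 targets with 17 of 20 and DNA damage response with 22 of 25. Over all genes 57.1% were in all 4 lists, 0.33% were siARID1A only and 3.84% YTHDF1-KO only. At such low shares a list of this size may hold no one-condition member, so its absence is a description here and below. Genes of nucleic acid sensing (8 of 18, 44.4%), antigen presentation (7 of 19, 36.8%), cytokines and chemokines (11 of 26, 42.3%) and interferon-stimulated genes (13 of 25, 52.0%) stood beside 57.1% of all genes in all 4 lists, a difference that was not tested, and none had an end in a one-condition pattern. By promoter windows, 2 of 18 interferon-stimulated genes (11.1%), 1 of 20 cytokines and chemokines, 1 of 15 genes of the glucocorticoid response and 1 of 24 SWI/SNF subunits were YTHDF1-KO only, against 4.28% of all promoters. Epithelial identity had 15 of 22 and the glucocorticoid response 13 of 18.

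List genes lay in 447 of the shared regions, of which 59 (13.2%) were narrower and 0 wider in siARID1A, near the 10.2% of all shared regions, with a median log2 difference of −0.57. Over shared regions that hold the promoter of a list gene the median was negative in all 22 lists, between −1.06 for immune checkpoint ligands (6 regions, 3 called) and −0.25 for the AP-1 and ATF family (14 regions, 2 called), and −0.55 over the 7460 shared regions that hold a promoter of any protein-coding gene, of which 9.0% were called narrower. IFI6, an interferon-stimulated gene, had 605 and 748 bp in siARID1A cells and 5020 and 3616 bp in YTHDF1-KO cells (log2 difference −2.66, SE 0.41, limma adjusted p = 0.0324). CLDN3, a tight junction gene, had 1755 and 1237 bp against 9302 and 7519 bp (−2.50, SE 0.36, limma adjusted p = 0.0324). CD276, which encodes the checkpoint ligand B7-H3, had 1651 and 1115 bp against 5857 and 7548 bp (−2.29, SE 0.39, limma adjusted p = 0.0324). NKX2-1, a transcription factor of lung epithelium, had 490 and 1208 bp in siARID1A cells and 3192 and 4776 bp in YTHDF1-KO cells (−2.34, SE 0.54, limma adjusted p = 0.0431). At each of these both siARID1A values lay below both YTHDF1-KO values, but they were chosen by their difference. The same held at 65.7% of all shared regions and 72.5% of those at list genes. TAGLN, the SRSF1 and VEZF1 region, TEAD4, RPS29, CD14, ANGPTL4, the ERBB3 and PA2G4 region and the FANCI region completed the 12. Their log2 differences ran from −3.38 to −1.89. The FANCI region lay over POLG and POLGARF and met only the 1 kb window at an end of FANCI. The ERBB3 and PA2G4 region held the promoter window of PA2G4 and not that of ERBB3. After centring TAGLN kept its call (−2.61, adjusted p = 0.0469). The others lost theirs with centred log2 differences from −1.89 at IFI6, −1.73 at CLDN3 and −1.57 at NKX2-1 to −1.12 at the FANCI region.

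The genes targeted in the cells carried peaks in all 4 lists at their ends. At the ARID1A promoter (chr1:26694890-26696504) the peak covered 1454 and 1044 bp in siARID1A cells and 1561 and 1412 bp in YTHDF1-KO cells (log2 difference −0.27, SE 0.41, limma adjusted p = 0.645). At the YTHDF1 promoter (chr20:63214909-63229815) it covered 8426 and 9420 bp in siARID1A cells and 12433 and 12909 bp in YTHDF1-KO cells (−0.51, SE 0.20, limma adjusted p = 0.117). These peaks lie in chromatin and do not check the amount of either protein. Of 12 epithelial markers of A549 cells, among them KRT8, KRT18 and NQO1, 10 had an end peak in all 4 lists, and EPCAM and GATA6 lacked it in siARID1A replicate 1. Among markers of other cells, 12 of 21 haematopoietic (57.1%) and 9 of 19 neuronal genes (47.4%) also had an end peak in all 4 lists. The share over all protein-coding genes was 57.1%, so these markers did not stand above it.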

How the data were processed

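CUT&Tag peak lists of A549 cells were used as deposited, 1 list per sample. The submitters' processing notes name the genome build GRCh38 (hg38) and the tools SEACR 1.3, a peak caller for sparse data, Bowtie2 2.4.2, deepTools 3.5.2, bedtools 2.30.0, SAMtools 1.9 and fastp 0.23.2. How IgG entered peak calling, and with which settings, was not given in the sources used here. Each list gives positions and 2 columns of coverage signal, the total and the highest of a peak, on a scale the authors set per library. Signal was therefore used only as a percentile or share within a list. Sequencing depth is unknown. Groups came from the sample titles.

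Peaks outside chromosomes 1 to 22 and X (3.67 to 4.06% of the 4 lists) were left out. Regions, windows and calls are defined in the report. Coordinates are 1-based. Covered length at shared regions and chromosome shares were tested with limma 3.58.1 in R 4.3.3, with 2 libraries per condition and no block. Empirical Bayes was used with a mean trend for covered length and without a trend for chromosome shares. Adjustment was by Benjamini-Hochberg with a threshold of 0.05. The procedure was first tested on simulated data. Values per list were compared by an exact two-sided permutation test. Gene positions, which lack a strand, came from a RefSeq table of GRCh38.p14, and promoter sequences with strand from RefSeq of the same build, matched by symbol for 15811 of 19970 genes.

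Named were ARID1A, YTHDF1, the 12 one-condition regions of highest mean percentile per direction, up to 15 list genes per direction, and the 12 most changed called regions, overall and at list genes; MUC5B, ANXA2, SPINT2 and the chromosome 21 region, the regions still called narrower after centring, DDX39B and WWTR1 were added after their values were seen. The members and lists were chosen with earlier results of these data known. A few items covered by the naming rules are not reported here.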

Additional observations from a re-analysis of the deposited data

Results flagged for a closer look

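The mitochondrial genome lay outside the regions compared. It took 47.2% ± 3.23 of the listed signal in siARID1A and 22.8% ± 0.279 in YTHDF1-KO anti-ARID1A lists (SD, n = 2 each), both above the 18.7% ± 0.885 of the WT lists. With anti-YTHDF1 the shares were 31.7% ± 0.400 in siARID1A and 28.3% ± 0.995 in YTHDF1-KO cells.

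The direction of the contrast in covered length and peak number differed between the antibodies in every library. The covered length had a ratio of siARID1A over YTHDF1-KO of 0.477 with anti-ARID1A and of 1.34 with anti-YTHDF1, and the number of peaks ratios of 0.728 and 1.21. The difference between the antibodies was not tested.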

How the results depend on the processing

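The ratios of peak number (0.689 to 0.766 with 1 library left out) and covered length (0.417 to 0.538) kept their direction in every alternative run; with a replicate block they were 0.727 and 0.473, with an exact p of 0.50, the smallest possible for 2 pairs. No pairing by replicate number was seen in the widths, where the deviations of same-numbered libraries correlated at −0.003 over the shared regions. A shift common to a whole library drops out of that correlation. Whether same-numbered libraries were prepared together is therefore unknown.

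siARID1A only regions numbered 424 in the 50% of each list with the highest total signal, and 1578 and 1619 in lists of equal length by total and by highest signal, and 2188 to 12915 with 1 library left out. YTHDF1-KO only regions numbered 8472, 7725 and 8048 in the same lists, 6644 in equal lists without chromosomes 2, 9 and 17 (an alternative chosen after seeing the data), and 20989 to 48526 with 1 library left out. Gene ends numbered 173 for siARID1A only and 472 for YTHDF1-KO only in lists of equal length, and 200 to 308 and 1244 to 1844 with 1 library left out. For regions and gene ends alike, leaving out a library loosens the rule and so raises the counts.

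Narrower regions numbered 6 after centring, 1571 under 10 kb and 42 among 11691 regions with 1 peak in each list, and 1 to 8289 with 1 library left out. Wider regions numbered 43 after centring, 1 by the widest single peak, 2 with the replicate block (3722 narrower) and 0 to 2 with 1 library left out. The median log2 difference was 0.10 after centring, −0.52 at regions with 1 peak in each list and −0.83 by the widest peak; elsewhere it lay between −0.53 and −0.76. With the replicate block 15 chromosomes were lower and 4 higher, and without chromosome 2 in the total, a choice made after seeing the data, 11 were lower and 7 higher. In lists of equal length chromosomes 4, 6, 13, 16, 18, 22 and X changed sign, to 0.03, 0.02, 0.14, −0.03, 0.11, −0.07 and 0.01. The cause of these changes was not tested. Of 16 named list genes 9 kept their pattern with windows of 3 kb, 6 with the whole gene and 10 in lists of equal length. Of 23 named narrower regions 2 kept the call after centring, 22 by the widest peak and 23 with the block. The unknown depth limits every count of peaks and every width.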
